A study of Mus musculus with 21 samples.

Results

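The comparison concerned epididymal white fat, the visceral depot beside the epididymis, in the morning, at zeitgeber times 2 h (ZT02) and 6 h (ZT06) after lights on. It set male C57BL/6j mice raised germ-free, without any microbes, against males raised conventionally, with a microbiota. All were 15 to 16 weeks old and ate ad libitum. The members were chosen by label and time: 4 conventional libraries (replicates 1 and 2 at ZT02, replicates 1 and 2 at ZT06) and 3 germ-free libraries (replicate 2 at ZT02, replicates 1 and 2 at ZT06), 7 of the 21 libraries of the series. The other 14 libraries, from ZT10 to ZT22, served as a second set that shares no library with the morning. The question was which genes of the depot differed with the microbiota in the first hours of the light phase, when mice pass from their nightly feeding into rest. Whether every library is a mouse of its own is not said in the labels, and the p-values therefore describe variation among libraries, part of which may be technical.

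White fat stores fatty acids as triglyceride and releases them between meals. Its adipocytes make fatty acids from glucose, take up others that lipoprotein lipase frees at the capillary wall, and are held in a matrix of collagen made by fibroblast-like progenitors. Capillary endothelial cells handle the lipid traffic into the adipocyte. A circadian clock runs in all of these cells, with the activators Arntl and Clock at night's end giving way to the repressors Per and Cry and to outputs such as Dbp during the day.

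Total counts were 31874817 to 37517622 per library. Levels are given as CPM, reads scaled to a library of 1000000 reads after TMM scaling, which sets library sizes by genes that vary little. Adipocyte identity genes summed to 24700 to 35500 CPM in every library. Transcripts of other tissues were present to different degrees. Markers of ciliated duct cells summed to 48.5 to 413 CPM in conventional and 59.3 to 435 CPM in germ-free libraries. Markers of liver summed to 76.1 to 847 and 52.2 to 112 CPM, of which Serpina3k gave 34.1 to 103 and 6.48 to 12.2 CPM. Spermatid markers summed to 1.09 to 16.8 CPM in conventional and 1.20 to 78.7 CPM in germ-free libraries. The conventional library at ZT02, replicate 2, had the most liver transcripts, with albumin (Alb) at 437 CPM against 25.8 to 63.3 CPM in the other 6.

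Among 18985 genes tested with edgeR's quasi-likelihood test, 255 (1.34%) passed an adjusted p of 0.05, of which 50 (0.263%) were higher and 205 (1.08%) were lower in germ-free fat. The genes that rose included regulators of blood vessel cells and enzymes of fatty acid handling. Those that fell included type I collagen, insulin-like growth factor 1 (Igf1), 2 targets of the aryl hydrocarbon receptor and several long genes for chromatin and transcription regulators. Of the 255 genes, 40 changed by more than 2-fold, and for 252 the libraries of the arms did not overlap. The 255 are entries of the table: Efna5, Srcap, Tead1 and Zbtb20 each stand under 2 gene IDs, and Mid1 beside the pseudogene MID1, so reads of these are uncertain. Arms that did not overlap were also seen for 1121 of all genes tested on the higher side (5.90%) and 1419 on the lower side (7.47%). The calls rest on few libraries: leaving out any of the 4 conventional libraries left 0 genes past the threshold, and leaving out the germ-free library at ZT02 left 1. An unadjusted p below 0.05 was found for 2755 genes in the fit of all 7 libraries. DESeq2's Wald test on the same libraries called 419 genes higher and 647 lower, and a fit of all 21 libraries called 140 higher (0.764%) and 101 lower (0.551%) in the morning. Genes that rose were therefore 19.6% of calls in the reported fit and 58.1% in the fit of all 21 libraries.

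**Figure D1:**
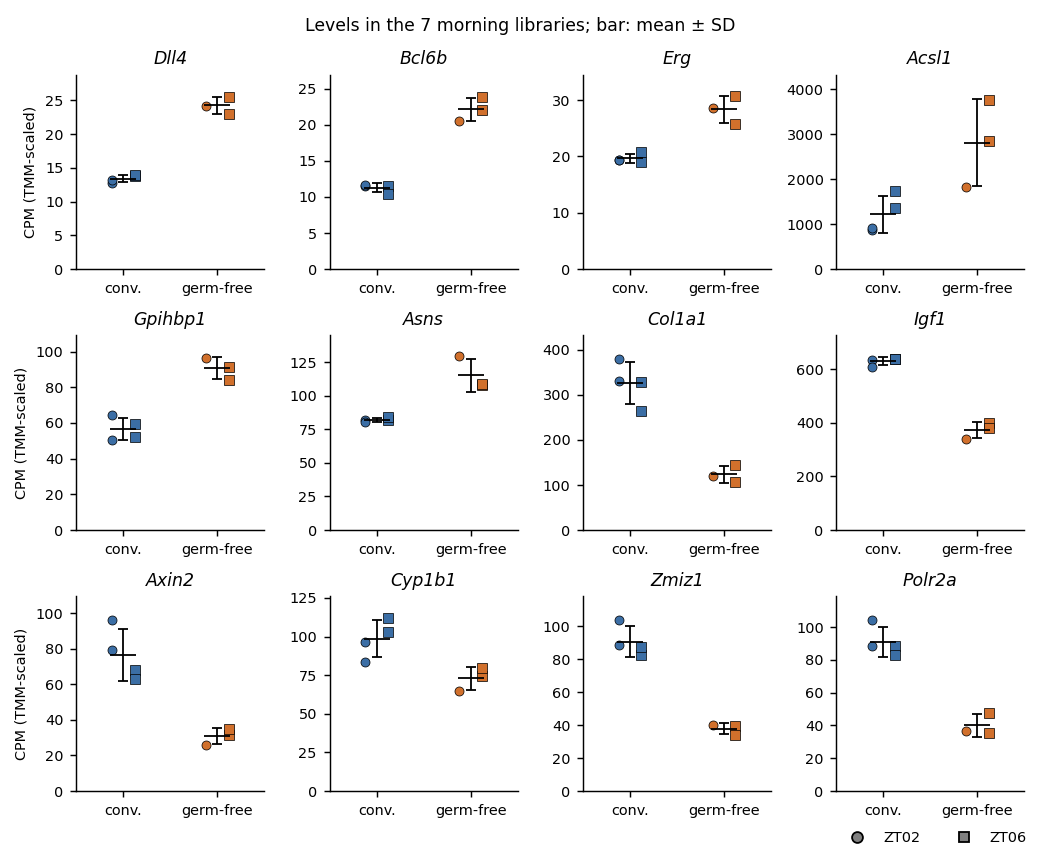
Level in CPM (vertical axis, from 0) of 12 genes past the threshold in each of the 7 morning libraries, by arm (horizontal axis); circles are ZT02, squares are ZT06, and the bar gives the mean ± SD of 4 conventional or 3 germ-free libraries. In each of the 12 panels the germ-free libraries lie wholly above (Dll4, Bcl6b, Erg, Acsl1, Gpihbp1, Asns) or wholly below (Col1a1, Igf1, Axin2, Cyp1b1, Zmiz1, Polr2a) the conventional ones.

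Regulators made by endothelial cells rose in the germ-free libraries. Dll4 (chr2:119325784-119335962), the Notch ligand of sprouting tip cells, stood at 12.8 and 13.1 CPM at ZT02 and 13.8 and 13.9 CPM at ZT06 in conventional fat, and at 24.2 CPM at ZT02 and 23.0 and 25.6 CPM at ZT06 in germ-free fat. The 4 conventional levels lay close together and every germ-free level was far above them. Its log2 fold change was 0.85 ± 0.07 (± gives the SE here and below), with an adjusted p of 0.0174. Bcl6b, a transcriptional repressor of endothelial cells, stood at 10.4 to 11.7 CPM in conventional and 20.5 to 23.8 CPM in germ-free libraries (log2 fold change 0.97 ± 0.09, adjusted p = 0.0174). Nrarp, a feedback regulator induced by Notch signals, went from 9.23 to 11.7 CPM up to 16.7 to 25 CPM (log2 fold change 1.02 ± 0.14, adjusted p = 0.0335). Apold1, an endothelial gene of early responses, rose by 1.23 ± 0.19 on the log2 scale (adjusted p = 0.0435). Arms of these 4 genes did not overlap, as for 5.90% of all genes tested on the higher side.

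Of 15 endothelial marker genes listed, 1 rose (Erg, the ETS factor that maintains endothelial identity) and none fell, against 0.263% of all genes that rose. Erg stood at 19 to 20.9 CPM in conventional and 25.8 to 30.7 CPM in germ-free libraries (log2 fold change 0.53 ± 0.08, adjusted p = 0.0446). The list's median log2 fold change was 0.46, against 0.02 over all genes tested, and 14 of its 15 members had positive values. Its summed level was 911 to 1070 CPM in conventional and 1070 to 1310 CPM in germ-free libraries. Pecam1, the junction protein used to stain vessels, was at 162 to 165 CPM in conventional and 193 to 218 CPM in germ-free libraries, with an adjusted p of 0.0503. The tight junction gene Cldn5 had a log2 fold change of 1.05 ± 0.29 and the receptor Kdr one of 0.55 ± 0.14, neither past the threshold (adjusted p = 0.168 and 0.146). The exception was Vwf, the clotting factor of larger vessels, at 84.2 to 142 CPM in conventional and 46.8 to 80.4 CPM in germ-free libraries (log2 fold change -1.03 ± 0.22, adjusted p = 0.101).

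Further endothelial genes were noticed only after their values were seen and are given as such. Egfl7, an angiogenic factor that vessels secrete, rose by 0.50 on the log2 scale, the adhesion molecule Icam2 by 0.59, the sphingosine-1-phosphate receptor S1pr1 by 0.66, Kank3 by 0.69, Gimap6 by 0.47 and the transcription factor Meox2 by 0.44, with adjusted p between 0.0335 and 0.0446. At ZT10 to ZT22, where 11.5% of genes passed on the higher side, Bcl6b, Dll4, Erg and Gimap6 rose. Nrarp, Egfl7, Icam2, S1pr1, Kank3, Apold1 and Meox2 did not pass there, with adjusted p from 0.0554 for Nrarp to 0.603 for Meox2. In bulk tissue, fewer cells of a type and less RNA per cell cannot be told apart, and the same holds for more.

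Acsl1 and Gpihbp1, genes of fatty acid activation and uptake, rose in the same libraries. Acsl1 (chr8:46471037-46536051), which joins long-chain fatty acids to coenzyme A, stood at 867 and 919 CPM at ZT02 and 1355 and 1733 CPM at ZT06 in conventional fat. In germ-free fat it was at 1820 CPM at ZT02 and 2855 and 3763 CPM at ZT06. Each germ-free library exceeded every conventional one, and both arms were higher at ZT06 than at ZT02 (log2 fold change 1.07 ± 0.14, adjusted p = 0.0335). Gpihbp1, the anchor that carries lipoprotein lipase across the capillary wall, was at 50.7 to 64.2 CPM in conventional and 84.2 to 96.4 CPM in germ-free libraries (log2 fold change 0.69 ± 0.10, adjusted p = 0.0365). It is made by endothelial cells, so it belongs to the vessel genes too.

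These were the 2 of 20 tested genes for triglyceride synthesis and uptake that rose, against 0.263% of all genes, and none of the 20 fell. The list's median log2 fold change was 0.17, against 0.02 over all genes tested. Dgat1, which makes the last bond of triglyceride, was at 168 to 256 CPM in conventional and 265 to 391 CPM in germ-free libraries, and the carrier Fabp5 at 66.5 to 95.3 and 98.6 to 148 CPM. Neither passed (adjusted p = 0.0541 and 0.0623). For both genes the arms did not overlap, as for 5.90% of all genes tested on the higher side. Sult1a1, a sulfotransferase of phenols, rose from 105 to 129 CPM up to 216 to 293 CPM (log2 fold change 1.05 ± 0.13, adjusted p = 0.0278). Asns, asparagine synthetase, a target of the amino acid stress response, was at 80.2 to 83.9 CPM in conventional and 108 to 129 CPM in germ-free libraries (log2 fold change 0.50 ± 0.07, adjusted p = 0.0365). It was the only gene of 18 in the list for unfolded protein and amino acid stress that passed. Apln, which encodes the vascular and adipose peptide apelin, rose by 0.63 ± 0.09 (adjusted p = 0.0377), 1 of 16 adipokine genes.

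Transcripts of type I and type V collagen chains fell in the germ-free libraries. Col1a1 (chr11:94936224-94953042), the main chain of type I collagen, stood at 332, 379, 265 and 328 CPM in the conventional libraries and at 119, 107 and 144 CPM in the germ-free ones (log2 fold change -1.37 ± 0.15, adjusted p = 0.0213). Its partner chain Col1a2 fell from 718 to 831 CPM down to 405 to 479 CPM (log2 fold change -0.74 ± 0.08, adjusted p = 0.0219). Col5a1, which starts collagen fibrils, and Mmp14, a membrane protease that cuts collagen, also fell, by 0.65 and 0.57 on the log2 scale (adjusted p = 0.0302 and 0.0448). These were 4 of 35 matrix genes, against 1.08% of all genes that fell, and none rose. The list's median was -0.16 and 24 of 35 values were negative. Its summed level was 16300 to 16900 CPM in conventional libraries. In germ-free libraries the sum was 17000 CPM at ZT02, the highest of all, and 13000 and 13100 CPM at ZT06. Of 16 genes for collagen folding and secretion, Creb3l1, a membrane-bound factor that switches on collagen secretion, fell from 10.4 to 13.3 CPM down to 3.99 to 6.86 CPM (log2 fold change -1.27 ± 0.18, adjusted p = 0.0382). These 16 genes summed to 1660 to 1680 CPM in conventional libraries. In germ-free libraries they summed to 1790 CPM at ZT02 and to 1410 and 1340 CPM at ZT06.

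Igf1, Axin2 and Adamts15 fell too, as did 3 genes for secreted or membrane proteins. Igf1 (chr10:87858265-87937042), the growth factor that acts on neighbouring cells, stood at 634, 610, 638 and 639 CPM in conventional fat and at 338, 399 and 380 CPM in germ-free fat. The conventional libraries were close to each other and the germ-free ones all lay far below (log2 fold change -0.78 ± 0.07, adjusted p = 0.0174). Axin2, a feedback inhibitor that Wnt signals induce, fell from 62.8 to 95.9 CPM down to 26.0 to 34.8 CPM (log2 fold change -1.28 ± 0.18, adjusted p = 0.0365). At ZT10 to ZT22 the log2 fold change of Axin2 was -0.30 (adjusted p = 0.336) and that of Igf1 was -0.27 (adjusted p = 0.106), so neither passed there. The difference between the morning and the other times was not past the threshold for either gene. Adamts15, a protease of proteoglycans, fell by 1.29 on the log2 scale (adjusted p = 0.0207), with a value of -0.16 at the other times (adjusted p = 0.691). Srpx, Ssc5d and Lgi3, which encode secreted or membrane proteins, fell by 1.33, 1.27 and 1.63.

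Several receptors and transcription factors, chosen after their values were seen, fell too: Notch3 of mural cells, the Wnt effector Tcf7l2, the Hedgehog effector Gli3 and the fatty acid receptor Ppard. Their log2 fold changes ran from -0.90 for Gli3 to -0.66 for Ppard. Of 18 genes of the glucocorticoid and fasting response, Foxo1 and Foxo3, the forkhead factors that insulin restrains, fell by 0.73 and 0.29 (adjusted p = 0.0491 and 0.0435), where 1.08% of all genes fell. The list's median was -0.29. Fkbp5, a co-chaperone that glucocorticoids induce, was at 122 to 274 CPM in conventional and 71.4 to 76.0 CPM in germ-free libraries without passing (adjusted p = 0.151).

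Cyp1a1 and Cyp1b1, target genes of the aryl hydrocarbon receptor, fell in germ-free fat. The receptor is a ligand-activated transcription factor, and tryptophan products of gut bacteria are among its known ligands. With its partner Arnt it binds DNA at the core letters GCGTG. Cyp1a1, its classic target gene and a monooxygenase, was expressed at a very low level: 28, 16, 31 and 51 reads in the conventional libraries and 2, 3 and 6 reads in the germ-free ones. These correspond to 0.780, 0.470, 0.951 and 1.68 CPM against 0.0542, 0.0875 and 0.163 CPM (log2 fold change -3.38 ± 0.44, adjusted p = 0.0332). Cyp1b1, a related monooxygenase found in stromal cells, stood at 83.3, 96.7, 112 and 103 CPM in conventional and 64.8, 74.6 and 79.6 CPM in germ-free libraries (log2 fold change -0.48 ± 0.07, adjusted p = 0.0399). Tiparp, which modifies the receptor and limits it, was at 100 to 149 CPM in conventional and 84.2 to 95.5 CPM in germ-free libraries. Its arms did not overlap, as for 7.47% of all genes tested on the lower side, and its adjusted p was 0.0694.

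The promoters of these 3 genes are shown because all 3 hold the core letters. Each line runs 5′ to 3′ on the strand of the gene, from 250 bases before to 50 bases after the RefSeq start (GRCm38.p6), with GCGTG or its reverse complement in capitals.

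Cyp1a1, chr9:57697363-57697662, forward strand: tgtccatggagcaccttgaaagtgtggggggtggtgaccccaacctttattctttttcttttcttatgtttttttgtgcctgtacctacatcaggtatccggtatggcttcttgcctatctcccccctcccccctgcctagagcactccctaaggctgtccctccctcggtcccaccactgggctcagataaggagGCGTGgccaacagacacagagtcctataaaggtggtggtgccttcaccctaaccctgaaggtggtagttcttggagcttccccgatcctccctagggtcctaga

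Cyp1b1, chr17:79715012-79715311, reverse strand: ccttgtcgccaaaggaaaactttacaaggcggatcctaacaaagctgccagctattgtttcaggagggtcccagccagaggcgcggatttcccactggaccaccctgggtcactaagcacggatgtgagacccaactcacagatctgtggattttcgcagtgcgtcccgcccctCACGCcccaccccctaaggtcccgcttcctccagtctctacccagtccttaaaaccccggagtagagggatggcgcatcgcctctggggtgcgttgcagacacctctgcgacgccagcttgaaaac

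Tiparp, chr3:65528197-65528496, forward strand: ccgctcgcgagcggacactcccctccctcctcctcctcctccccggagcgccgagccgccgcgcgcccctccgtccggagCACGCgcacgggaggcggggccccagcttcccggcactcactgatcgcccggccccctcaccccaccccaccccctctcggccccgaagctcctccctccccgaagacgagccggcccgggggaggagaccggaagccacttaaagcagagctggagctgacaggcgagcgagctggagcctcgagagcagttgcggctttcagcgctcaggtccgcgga

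The core letters lay 54 bases before the start in Cyp1a1, 76 in Cyp1b1 and 170 in Tiparp, in the last 2 on the other strand. They are common: 32.4% of 32851 RefSeq promoters of the same length hold them on either strand, and 6 of the 14 matched genes of the list do. A match is a description of the letters and not a measured binding site. Ahrr, the receptor's repressor and another known target, has 3 matches in its window and was at 0.828 to 1.03 CPM in conventional and 0.729 to 1.44 CPM in germ-free libraries, which overlap. Ahr and Arnt overlapped between the arms as well, with log2 fold changes of 0.15 and 0.01. Of 19 genes in the list, 2 fell, where 1.08% of all genes did, and none rose. Positive values were found for 14 of the 19 (median 0.15) and for 10051 of all 18985 genes. At ZT10 to ZT22, Cyp1a1 and Cyp1b1 had log2 fold changes of -1.79 and -0.31, neither past the threshold (adjusted p = 0.0728 and 0.159).

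Genes that fell included nuclear regulators with long transcripts, grouped after their values were seen. Zmiz1 (chr14:25459185-25666743), a transcriptional coactivator that works with Notch, stood at 104, 88.9, 82.5 and 87.7 CPM in conventional and 40.3, 39.2 and 33.8 CPM in germ-free libraries (log2 fold change -1.23 ± 0.08, adjusted p = 0.0166). Mll2, the gene now named Kmt2d, a methyltransferase of enhancer histones, fell from 112 to 133 CPM down to 46.1 to 55.4 CPM. Its relatives Mll1, Mll3, Mll5, Setd1a and Setd1b fell by 0.44 to 1.07 on the log2 scale. The acetyltransferases Crebbp and Ep300 fell by 0.77 and 0.81, and the remodeller subunit Arid1a by 0.88. Polr2a, the largest subunit of RNA polymerase II, was at 82.8 to 104 CPM in conventional and 35.6 to 47.8 CPM in germ-free libraries (log2 fold change -1.18 ± 0.14, adjusted p = 0.0241). At ZT10 to ZT22 the germ-free library at ZT10, replicate 2, stood apart: each of these genes lay there within its conventional range. Scaled over the whole day, Zmiz1 was at 87.5 CPM in that library, at 80.1 to 135 CPM in conventional and at 32.4 to 42.7 CPM in the other 8 germ-free libraries.

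The length of the exons moved with these genes. Median exon length was 7412 bases for the genes that fell, 3481 for those that rose and 3260 for all genes tested. Among genes above a mean log2 CPM of 1 in 5 equal groups of exon length, the median log2 fold change was 0.06, 0.06, 0.03, 0.00 and -0.06 from the shortest to the longest, and 118 of the genes that fell were in the longest. Per library, the rank correlation across 15458 genes between exon length and a gene's deviation from its mean level was -0.01 to 0.19 in conventional and -0.29 to 0.07 in germ-free libraries. Genes are not independent replicates, so this describes libraries. With a length trend removed from each library, 42 genes were higher and 139 lower. The part of exon length in the result was not tested beyond that fit.

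Of the 255 genes, 254 were tested at ZT10 to ZT22 as well, in the 14 libraries that the morning comparison did not use. There 24.1% of all genes passed, 11.5% on the higher and 12.6% on the lower side. In these libraries 246 of the 254 had the same direction and 200 passed in that direction, 22 of the 50 that rose (44.0%) and 178 of the 204 that fell (87.3%). None passed in the opposite direction. Without the germ-free library at ZT10, replicate 2, 211 of the genes passed in the same direction, and without that at ZT22, replicate 2, 150 did, 20 that rose and 130 that fell. Of all genes tested in both sets of libraries, 18.9% passed at ZT10 to ZT22 with the sign they had in the morning. Acsl1 and Col1a1 had log2 fold changes of 1.14 and -1.33 at those times, beside morning values of 1.07 and -1.37. A test of the morning against the other times passed for 1 of 18334 genes (0.00545%), Stat6, whose morning log2 fold change of 0.15 did not itself pass.

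**Figure D2:**
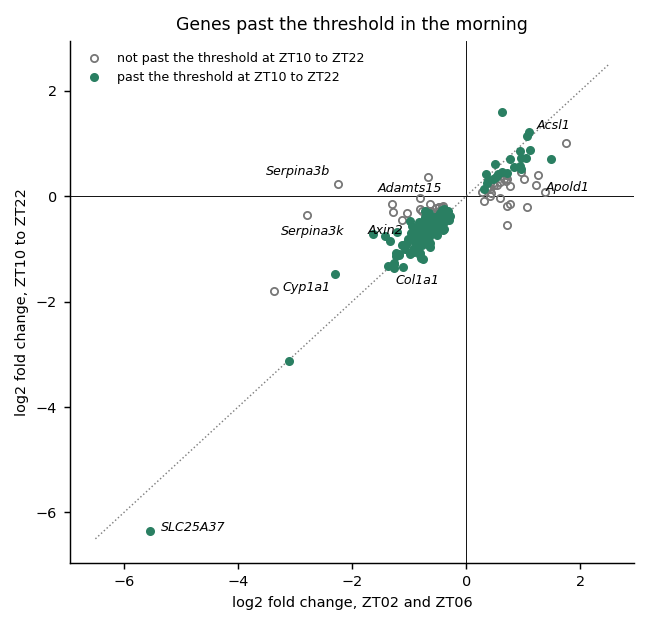
Log2 fold change, germ-free minus conventional, at ZT02 and ZT06 (horizontal axis, 7 libraries) against ZT10 to ZT22 (vertical axis, 14 libraries) for the 254 genes past the threshold in the morning and tested at both; filled points also passed at ZT10 to ZT22 and the dotted line marks equal values. Most points share a sign on both axes, while Serpina3k and Serpina3b lie near 0 on the vertical axis; the far point is SLC25A37, a fitted value of a gene with 14 to 26 reads in conventional and 0, 0 and 1 reads in germ-free libraries.

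Serpina3k and Serpina3b, secreted protease inhibitors of a family of near-identical genes, had the lowest log2 fold changes among the called genes above a mean log2 CPM of 1. Serpina3k was at 88.2, 103, 59.4 and 34.1 CPM in conventional and 6.48, 12.2 and 8.54 CPM in germ-free libraries (log2 fold change -2.80 ± 0.44, adjusted p = 0.0446). Serpina3b fell by 2.24 ± 0.29 (adjusted p = 0.0302). Serpina3k is also made by liver, and all 15 liver markers had negative values, with a median of -1.41, while 1 passed, Serpina3k itself. Albumin was at 25.8 to 437 CPM in conventional and 32.2 to 60.2 CPM in germ-free libraries, which overlap. It was at 61.2 and 63.3 CPM in conventional replicate 1 at ZT02 and ZT06, and at 60.2 CPM in germ-free replicate 1 at ZT06. Serpina3k was at 88.2, 59.4 and 12.2 CPM in these libraries, in that order. In conventional replicate 2, albumin was at 437 CPM at ZT02 and 25.8 CPM at ZT06, where Serpina3k was at 103 and 34.1 CPM. Reads of the Serpina3 family cannot be assigned with certainty, so the values of Serpina3k and Serpina3b are uncertain. With the summed liver markers as a covariate, added after seeing the data, 0 genes passed in either direction and 1805 had an unadjusted p below 0.05. That sum contains Serpina3k, itself a called gene, so the covariate carries part of its arm difference. The 0 calls therefore cannot decide the part of liver transcripts, which was not tested otherwise.

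Genes for making fatty acids gave no calls in the morning. Of 20 genes for de novo lipogenesis, 0 passed in either direction with edgeR, and the median log2 fold change was -0.09. At ZT10 to ZT22, 14 of the 20 rose, where 11.5% of all genes did, and the median was 0.82. Fasn, fatty acid synthase, was at 6734, 7267, 9028 and 15092 CPM in conventional and 4817, 10662 and 10325 CPM in germ-free libraries, with arms that overlap (log2 fold change -0.33 ± 0.22, adjusted p = 0.558). Scaled together over the day, all 8 conventional libraries from ZT10 to ZT22 were at 1375 to 5540 CPM of Fasn, below all 4 conventional libraries of the morning at 6564 to 14840 CPM. Germ-free libraries were at 4739 to 10450 CPM in the morning and 6275 to 22880 CPM later. The same order held for Elovl6, which lengthens the product: 20.3 to 51.0 CPM in conventional libraries from ZT10 to ZT22 and 85.3 to 262 CPM in the morning. The morning-against-later difference was tested for each gene: the list had a median of -1.17 in log2 units, where all genes had -0.01, the value of Fasn was -2.23 ± 0.59 (adjusted p = 0.124), and none of the 20 passed with edgeR (smallest adjusted p = 0.122).

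Acacb, the acetyl-CoA carboxylase that restrains fat oxidation, had the smallest p of the list in the morning, at 308 to 442 CPM in conventional and 193 to 252 CPM in germ-free libraries. The arms did not overlap, as for 7.47% of all genes tested on the lower side, and the adjusted p was 0.0870. Cholesterol synthesis genes had a median of -0.07 in the morning with 0 of 23 passing, and 0.68 with 12 of 22 rising later. All 25 respiratory chain genes had positive values in the morning, as 10051 of 18985 genes did, with a median of 0.13 and 0 passing. All 25 rose later with a median of 0.56, against 11.5% of all genes at those times. Ndufv1, a subunit of complex I, was the nearest to passing in the morning, at 122 to 155 CPM in conventional and 164 to 182 CPM in germ-free libraries (adjusted p = 0.100). The fits hold 7 and 14 libraries, so their counts do not by themselves show a difference between the times. In edgeR's morning-against-later test 0 genes of the cholesterol and respiratory chain lists passed (smallest adjusted p = 0.133 and 0.0987).

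**Figure D3:**
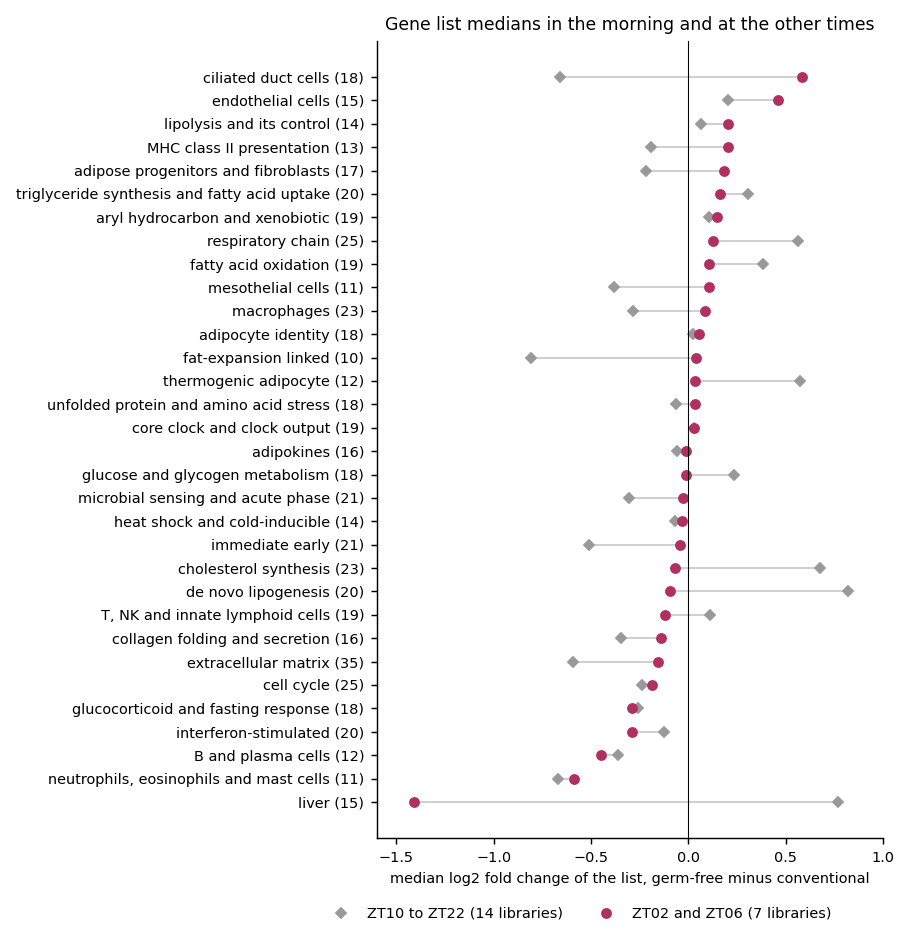
Median log2 fold change, germ-free minus conventional (horizontal axis), of 32 gene lists with the number of tested genes in brackets; circles are the 7 morning libraries, diamonds the 14 libraries at ZT10 to ZT22, and the grey lines join the values of a list. Lipogenesis, cholesterol synthesis and the respiratory chain lie near 0 in the morning and at 0.56 to 0.82 later, whereas endothelial cells lie at 0.46 in the morning and 0.20 later. No gene of these lists passed the morning-against-later test.

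Immune, stress and identity lists gave few calls. None passed among 23 macrophage genes (median 0.08), 19 genes of T, NK and innate lymphoid cells (median -0.12), 12 of B and plasma cells (median -0.45), 21 of microbial sensing and acute phase (median -0.02) and 20 interferon-stimulated genes (median -0.29). The 18 adipocyte identity genes had a median of 0.05, with none past the threshold, and the 12 thermogenic genes one of 0.03. Summed B and plasma cell markers ran from 380 to 996 CPM in conventional and from 123 to 1040 CPM in germ-free libraries.

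Clock gene levels at ZT02 and ZT06 lay further apart in the germ-free than in the conventional libraries, although no gene passed the test of that difference. Arntl (chr7:113207465-113314126), the activator that pairs with Clock, stood at 24.7 and 28.1 CPM at ZT02 and 15.6 and 15.6 CPM at ZT06 in conventional fat. In germ-free fat it was at 45.9 CPM at ZT02 and 6.09 and 6.20 CPM at ZT06. The germ-free library was the highest at ZT02 and the germ-free libraries were the lowest at ZT06, and the ZT02 mean was 1.70 times the ZT06 mean in conventional and 7.46 times in germ-free fat. Dbp, an output gene that Arntl and Clock drive, was at 26.1 and 20.4 CPM at ZT02 and 47.0 and 56.7 CPM at ZT06 in conventional fat, and at 10.4 CPM and 105 and 145 CPM in germ-free fat. Its ZT06 mean was 2.23 times the ZT02 mean in conventional and 12.0 times in germ-free fat.

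Ciart, a clock repressor listed as Gm129 in the table, was at 0.828 to 1.44 CPM in all conventional libraries, and at 0.352 CPM at ZT02 and 6.82 and 5.90 CPM at ZT06 in germ-free fat. Bhlhe41, another repressor, was at 16.5 and 26.1 CPM and then 16.5 and 21 CPM in conventional fat, and at 9.62 CPM and then 44.0 and 46.1 CPM in germ-free fat. Per2 was at 27.6 and 22.3 CPM and then 17.5 and 18.2 CPM in conventional fat, and at 11.4 CPM and then 23.7 and 33.6 CPM in germ-free fat. Nr1d1, the repressor of Arntl, went from 62.5 and 38.9 CPM to 97.1 and 101 CPM in conventional and from 49.9 CPM to 87.9 and 98.4 CPM in germ-free fat, nearly the same course.

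Of the 19 clock genes, 17 had a larger change between ZT02 and ZT06 in the germ-free means, and the exceptions were Nr1d1 and Cry2. Over all genes above 0 in every group the share was 56.4%. The means moved in the same direction in both arms for 13 of the 19 clock genes and for 9692 of those 18847 genes. Bhlhe41, Ciart, Per2 and Npas2 were among the clock genes that moved in opposite directions. The median absolute log2 change was 0.34 in conventional and 1.73 in germ-free libraries for the clock list, and 0.19 and 0.23 over all genes. The test of the difference between the times gave 13 of the 19 genes an unadjusted p below 0.05, as it did for 14.6% of all genes, and 0 of 18985 genes passed after adjustment (2842 unadjusted, edgeR). Arntl had the smallest p of all genes (difference -2.14 ± 0.15 on the log2 scale, adjusted p = 0.159), followed by Cdsn, Syde2, Pkhd1l1, C7 and Cpxm1, which are not clock genes. The germ-free arm at ZT02 is 1 library, taken to vary like the other groups, so what is particular to that library cannot be told apart from the arm. It also had the highest summed levels of mesothelial markers, at 811 CPM against 435 to 556 CPM in the other 6 libraries, and of class II presentation genes, at 2130 against 1010 to 1720 CPM. The part of these in the clock values was not tested. In the fit of time and arm no clock gene passed, and the list's median was 0.03. That fit takes 1 arm difference for both times, so differences that run opposite ways at ZT02 and ZT06 count as spread. It therefore does not show equal levels in the arms.

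**Figure D4:**
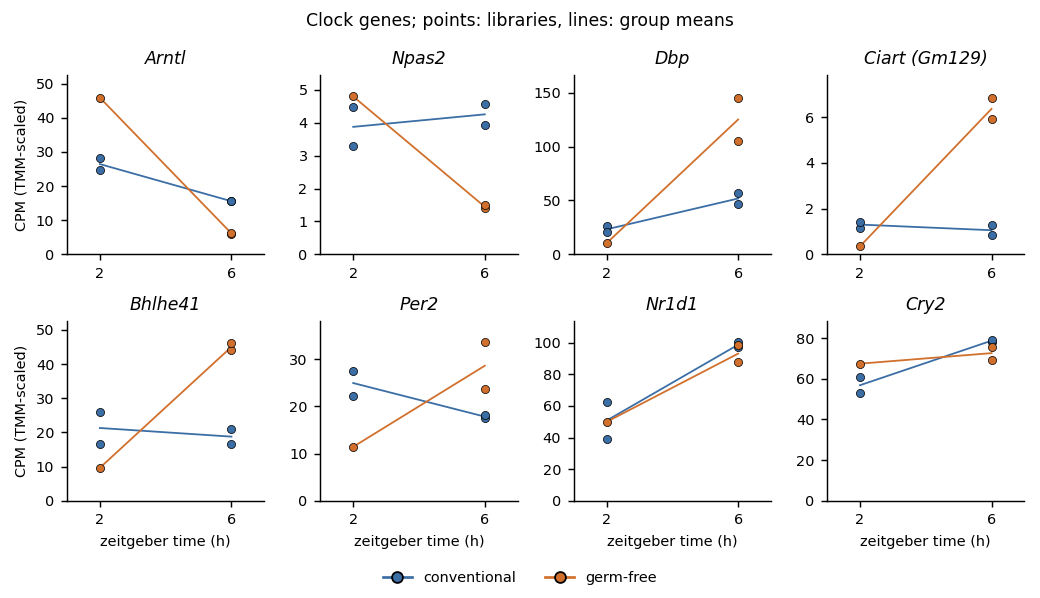
Level in CPM (vertical axis, from 0) of 8 clock genes at ZT02 and ZT06 (horizontal axis) in 4 conventional and 3 germ-free libraries; points are libraries and lines join the group means. For Arntl and Dbp the germ-free lines run in the same direction as the conventional ones and are steeper. For Npas2, Ciart, Bhlhe41 and Per2 they are steeper and run in the opposite direction. They are not steeper for Nr1d1 and Cry2.

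Arntl and Clock bind the E-box letters CACGTG, shown in capitals below. Promoters of 3 members are given, all of which hold these letters and had higher germ-free levels at ZT06 than at ZT02. Tef met both conditions too, with germ-free means of 110 CPM at ZT02 and 281 CPM at ZT06, and its promoter is not shown. The window and build are as above, and the letters read the same on both strands.

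Ciart, chr3:95882179-95882478, reverse strand: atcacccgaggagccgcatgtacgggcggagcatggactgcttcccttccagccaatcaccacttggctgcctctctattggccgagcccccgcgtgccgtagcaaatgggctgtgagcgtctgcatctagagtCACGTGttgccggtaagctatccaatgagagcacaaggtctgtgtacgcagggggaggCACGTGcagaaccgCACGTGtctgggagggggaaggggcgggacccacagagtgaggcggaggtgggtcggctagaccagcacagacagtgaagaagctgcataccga

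Bhlhe41, chr6:145865371-145865670, reverse strand: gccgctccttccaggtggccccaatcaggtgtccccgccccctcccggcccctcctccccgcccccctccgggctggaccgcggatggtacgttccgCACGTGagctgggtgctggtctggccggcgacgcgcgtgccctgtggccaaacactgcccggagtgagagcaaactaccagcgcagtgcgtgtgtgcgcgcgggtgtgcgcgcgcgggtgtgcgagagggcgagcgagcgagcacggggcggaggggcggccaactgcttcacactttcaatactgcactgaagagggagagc

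Per1, chr11:69098699-69098998, forward strand: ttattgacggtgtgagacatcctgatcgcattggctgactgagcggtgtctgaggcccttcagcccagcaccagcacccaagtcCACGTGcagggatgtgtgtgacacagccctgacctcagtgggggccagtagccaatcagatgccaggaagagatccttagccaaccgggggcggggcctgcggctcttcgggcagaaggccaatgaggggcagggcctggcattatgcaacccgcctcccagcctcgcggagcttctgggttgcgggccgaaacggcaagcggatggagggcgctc

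Ciart holds 3 copies, at 116, 58 and 44 bases before the start, Bhlhe41 holds 1 at 153 bases and Per1 holds 1 at 166 bases. Among all RefSeq promoters of this length 7.15% hold the letters, and 5 of the 16 matched clock genes do, the others being Cry1 and Tef. Per1 was at 31.9 and 20.8 CPM and then 32.2 and 24.9 CPM in conventional fat, and at 9 CPM and then 29.4 and 35.6 CPM in germ-free fat. Cry1 went from 9.80 and 11.7 CPM to 7.73 and 8.27 CPM in conventional and from 13.5 CPM to 8.16 and 11.4 CPM in germ-free fat, and its ZT06 minus ZT02 change differed between the arms by -0.05 ± 0.31 on the log2 scale, within its error. Dbp, whose change was among the steepest, has no CACGTG in this window. Hlf, Per3 and Nr1d2 have none either, with germ-free ZT06 means of 2.93, 3.67 and 3.63 times the ZT02 level.

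A run of neighbouring genes on chromosome 5 was higher in germ-free fat. All 4 genes that rose on this chromosome lay within 1115 kb on GRCm38, at chr5:8046078-9160986: Sri, a calcium-binding protein, Slc25a40, a mitochondrial carrier, Crot, which moves fatty acyl groups to carnitine in peroxisomes, and the gene model 4930420K17Rik. Sri was at 70.5, 73.4, 73.3 and 68.8 CPM in conventional libraries, and at 152, 110 and 144 CPM in germ-free ones (log2 fold change 0.94 ± 0.11, adjusted p = 0.0219). Crot was at 67.5 to 77.6 CPM in conventional and 111 to 155 CPM in germ-free libraries (log2 fold change 0.95 ± 0.13, adjusted p = 0.0349). Germ-free replicate 1 at ZT06 was the lowest germ-free library for both genes.

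In the same interval, Adam22, Dbf4, Abcb1a, Abcb1b and Abcb4 had log2 fold changes of 0.81 to 1.34 without passing (adjusted p = 0.0563 to 0.441), and Rundc3b one of 0.31. So 9 of 10 neighbouring genes were above 0.8 in log2 fold change, where 1.04% of 13383 genes with a position, above a mean log2 CPM of 1, were, and of 13198 runs of 10 neighbours none held more. The next genes by start on each side, Steap4 and Dmtf1, had values of 0.24 and 0.30. Dmtf1 overlaps 4930420K17Rik on the other strand, so it is not wholly outside the interval, and it rose at ZT10 to ZT22 (adjusted p = 0.0109). At ZT10 to ZT22, 8 of the 10 rose. Scaled over the whole day, Sri was at 66.0 to 74.7 CPM in all 12 conventional libraries and at 92.3 to 149.7 CPM in 8 of 9 germ-free ones, while the germ-free library at ZT22, replicate 2, was at 65.3 CPM. In that library Slc25a40 and 4930420K17Rik also lay within their conventional ranges, at 10.4 and 32.4 CPM, and Crot was at 78.3 CPM where the conventional libraries reached 75.4 CPM. The run was found after the values were seen, and what lies behind it was not tested. The cut of 0.8 lies just below Abcb4 at 0.81, the lowest of the 9, and runs of 10 match its length. The scan therefore describes the run and is no independent measure of how rare it is. On chromosome 19, Ide, which degrades insulin, fell from 140 to 225 CPM down to 90.8 to 97.9 CPM (log2 fold change -0.97 ± 0.15, adjusted p = 0.0435). The nearest genes on either side of Ide, March5 and Kif11, had log2 fold changes of 0.09 and -0.37 without passing. Genes further off went both ways without passing, among them Fgfbp3 at -1.15, Btaf1 at -0.34, Hhex at 0.52 and Exoc6 at 0.20. At ZT10 to ZT22 Fgfbp3 and Btaf1 fell (adjusted p = 0.0298 and 0.00195), and Hhex and Exoc6 did not pass.

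**Figure D5:**
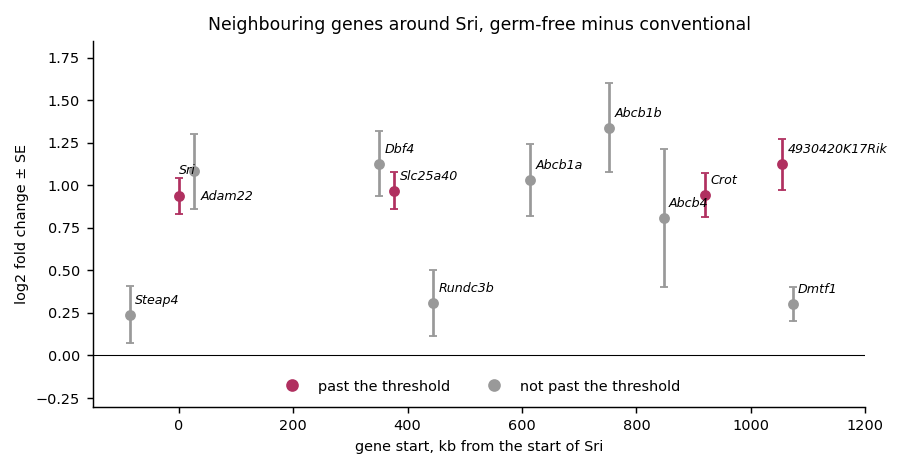
Log2 fold change ± SE, germ-free minus conventional in the morning (vertical axis), of genes by the distance of their start from that of Sri in kb (horizontal axis); red points passed the threshold and grey ones did not. Genes from Sri to 4930420K17Rik lie between 0.81 and 1.34 except Rundc3b at 0.31. The next genes by start, Steap4 and Dmtf1, lie at 0.24 and 0.30, and Dmtf1 overlaps 4930420K17Rik.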

How the data were processed

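RNA was taken from epididymal fat with a column kit and sequenced as stranded total RNA after removal of ribosomal RNA, per the labels' protocols. The submitters' processing notes name STAR 2.4.0i and the mm10 build. How reads were counted (program, strand, reads with several matches) and with which annotation is not given in the sources used here. For 38087 genes the authors deposited raw read counts over exons, and these counts were used as deposited.

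Genes were filtered with filterByExpr by arm, scaled by TMM and tested with edgeR 4.0.16 (R 4.3.3) in a fit of time and arm with 4 residual degrees of freedom. Adjusted p-values are Benjamini-Hochberg values over all genes tested, with a threshold of 0.05. A separate fit covered the 14 libraries at ZT10 to ZT22. The arm-by-morning term was tested in all 21 libraries, and the arm-by-time term in the 7 morning libraries. CPM values are on each fit's own scaling unless stated. Alternatives used DESeq2 1.42.0, other scaling, filters, covariates and libraries.

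Members and gene lists were chosen with earlier results of these data known. Genes named were drawn from the 12 highest and 12 lowest fold changes past the threshold at a mean log2 CPM of at least 1, up to 4 passing and 2 other members per list, all clock genes and the 6 smallest p of each interaction. Other genes are said to be chosen after their values were seen, or are neighbours of such genes or list members that illustrate a list. Positions are from GENCODE M21 on GRCm38, the assembly also called mm10, and promoters from RefSeq. Plots used Python 3.11.15 and matplotlib 3.10.9. Where a group has 2 libraries, they differed beyond counting noise, and each was counted as a library of its own. That check cannot tell separate mice from separate preparations of 1 mouse.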

Additional observations from a re-analysis of the deposited data

Results flagged for a closer look

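The arm difference in the morning differed from that at the other times for 1 gene, Stat6, the transcription factor that interleukin-4 activates. Its morning levels were 113, 112, 106 and 93.8 CPM in conventional and 134, 109 and 103 CPM in germ-free libraries, which overlap. Scaled over the whole day, Stat6 was at 112 to 139 CPM in conventional and 82.9 to 112 CPM in germ-free libraries at ZT10 to ZT22. Its log2 fold changes were 0.15 and -0.45, and their difference was 0.59 ± 0.08 (edgeR, adjusted p = 0.0357), with 2571 genes at an unadjusted p below 0.05. In other fits of Stat6 the adjusted p ran from 0.0198 to 0.303, the highest without the germ-free library at ZT02. Tpm4, Kctd10, Ppp1r12c, Cerk and Gatsl3 followed with an adjusted p of 0.0826 each.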

How the results depend on the processing

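All 255 genes kept their direction in every refit of the morning comparison. For 252 of them the arms did not overlap, so refits of these libraries could hardly turn a sign, and this count is no support. Counts of higher and lower genes were 50 and 205, and other settings gave 419 and 647 (DESeq2), 0 and 0 (ZT06 alone), 140 and 101 (all 21 libraries in 1 fit), 164 and 450 (ciliated duct markers as a covariate), 0 and 0 (liver markers as a covariate, added after seeing the data) and 42 and 36 (all 21 libraries with the replicate block, also added). The liver marker sum contains Serpina3k, a called gene, so its 0 and 0 cannot decide the part of liver transcripts. Higher genes were 19.6% of calls in the reported fit and 58.1% in the fit of all 21 libraries. Leaving out a library gave 0 to 23 higher and 0 to 68 lower genes. With the replicate number as a block, 0 genes were higher and 0 lower (2450 unadjusted), 0 remained past the threshold at both sets of times, and 0 passed the morning-against-later test. Deviations of same-numbered libraries of the arms correlated at 0.558 (ZT06), 0.219 (ZT10) and -0.183 (ZT22). Over all pairs of groups they ran from -0.593 to 0.602, positive for all pairs from ZT06 to ZT18 and near 0 for ZT02 with ZT06 (0.0506). Not every pair was above 0.1, so the numbers were not taken to pair the samples. The morning-against-later test called 1 gene, 0 without the filter on low counts, and 0 to 35 without a library, the 35 without the germ-free library at ZT06, replicate 2. The 200 genes that also passed later became 0 to 65 without a morning library and 211 and 150 without the germ-free ZT10 or ZT22 replicate 2. Sign changes were found for Elovl6 (0.35, range -0.00888 to 0.675 without a library), Steap4 (0.24, with -0.00668 at ZT06 alone and -0.00483 to 0.387 without a library) and the ZT06 minus ZT02 difference of Cry1 (-0.05, with 0.0710 under the replicate block). The causes of these shifts were not tested. Depth limits the lowest genes: Cyp1a1 rests on 2 to 51 reads per library.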
